A study of Homo sapiens with 18 samples.

Results

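The 42 genes described here encode proteins that sense and repair DNA damage. They were chosen by name, with earlier results of these data known: the BRCA complexes, strand exchange factors, resection and dissolution factors, Fanconi proteins, checkpoint kinases with their partners, end joining factors and MSH6. They are 42 of the 55765 gene symbols in the table, and all 42 were among the 16154 genes with a mean of at least 10 normalized counts, which were the genes tested. Their transcripts were measured by poly(A) RNA sequencing in G401, a malignant rhabdoid tumour line. The control line, called WT, was edited at AAVS1, a safe harbour site, and both copies of RB1 were disrupted in the lines E1 and F2. Each RB1-deleted line is 1 clone, so what belongs to RB1 and what belongs to the clone cannot be told apart within either. Every line received 10 µM tazemetostat, which blocks the H3K27 methyltransferase EZH2, or the same volume of the solvent DMSO, for 11 days. The 6 groups (WT DMSO, WT tazemetostat, E1 DMSO, E1 tazemetostat, F2 DMSO and F2 tazemetostat) each held 3 biological replicates, numbered in the sample titles.

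Homologous recombination repairs a DNA break with the sister chromatid as template. The broken ends are cut back to single strands, the BRCA proteins help to start strand exchange there, and helicase complexes later separate the joined chromatids. The Fanconi proteins open and mend crosslinks between the strands, whereas end joining seals a break without a template and is available throughout the cell cycle. ATM and ATR start the checkpoint signal that stops the cell cycle at damage. Many recombination and Fanconi genes are known to be transcribed mainly in S and G2 phase under E2F factors, which the RB1 protein restrains.

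The libraries held 25709489 to 39314860 reads. RB1, the targeted gene, had 2828, 2687 and 2565 normalized counts in the WT DMSO libraries, 658, 505 and 780 in E1 and 861, 804 and 852 in F2. All 6 clone libraries lay below all 3 WT libraries. SMARCB1, whose loss defines rhabdoid tumours, had 0 reads in every library, and 4 leukocyte markers had at most 6 reads each. The summed level of 4 epithelial markers, keratins among them, was 39287 to 43898 in WT with DMSO and 270800 to 283120 with tazemetostat, and it was also higher with tazemetostat in both clones (56760 to 85167 against 151661 to 158508 in E1, 22181 to 24417 against 146779 to 157846 in F2). A mesenchymal marker was higher with tazemetostat too, at 32884 to 36387 against 38991 to 39939 in WT. In E1 it had 44184 to 51451 against 62093 to 69993, and in F2 27410 to 31090 against 46202 to 48527. The sum of 2 endothelial markers was also higher in each line (0.946 to 2.83 against 36.5 to 43.1 in WT). That of 3 neuronal markers was lower in each line (313 to 324 against 206 to 247 in WT). The part of such marker changes in the results below was not tested. In these bulk samples, fewer cells of a type and less RNA per cell cannot be told apart. For any gene 1 of a group's 3 libraries is the lowest, but these genes did not divide evenly among the 3. WT tazemetostat replicate 3 was the lowest of its 3 for 31 of the 42, E1 DMSO replicate 2 and E1 tazemetostat replicate 1 for 25 each, WT DMSO replicate 3 for 24, and F2 tazemetostat replicate 1 for 22. In F2 with DMSO replicates 2 and 3 were the lowest for 21 and 20, and replicate 1 for only 1. The shares over all tested genes are not given here, so this may not be particular to the 42. Without WT tazemetostat replicate 3, 18 of the 42 genes fell and 1 rose with tazemetostat in WT, against 17 and 0 with it.

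Promoter sequences from RefSeq (build GRCh38.p14; 250 bases before to 50 bases after the start) matched 36 of the 42 genes. They are shown because many of these genes moved together. The letters TTTGGCGC, TTTCCCGC, TTTCGCGC and TTTGCCGC, which E2F factors are known to bind, were searched on both strands, together with CCAAT, the NF-Y box. Capitals mark these matches, each line gives the bases 5′ to 3′ on the gene's strand, and every stretch runs from 80 bases before to 30 bases after the start except that of FANCA, which begins 180 bases before it. The first group holds the members with an E2F match in the window except XRCC6, whose match begins at base 43 from the start, past the bases shown. FANCC has a further match 172 bases before the start, outside its stretch.
FANCD2 (chr3:10026357-10026466, plus strand): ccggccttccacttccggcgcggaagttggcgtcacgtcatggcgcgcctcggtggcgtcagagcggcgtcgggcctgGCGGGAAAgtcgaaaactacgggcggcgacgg
FANCA (chr16:89816718-89816827, minus strand): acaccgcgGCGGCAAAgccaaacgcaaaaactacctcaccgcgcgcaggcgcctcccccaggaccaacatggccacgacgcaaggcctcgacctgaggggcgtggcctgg
EXO1 (chr1:241848124-241848233, plus strand): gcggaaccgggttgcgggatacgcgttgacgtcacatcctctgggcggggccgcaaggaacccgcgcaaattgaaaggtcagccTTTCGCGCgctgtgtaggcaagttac
MSH6 (chr2:47783065-47783174, plus strand): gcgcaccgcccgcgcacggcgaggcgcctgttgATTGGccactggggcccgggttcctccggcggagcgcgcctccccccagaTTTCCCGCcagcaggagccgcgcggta
XRCC2 (chr7:152676112-152676221, minus strand): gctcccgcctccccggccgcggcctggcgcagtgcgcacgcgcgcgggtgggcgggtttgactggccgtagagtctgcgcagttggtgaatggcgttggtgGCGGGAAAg
TOPBP1 (chr3:133661912-133662021, minus strand): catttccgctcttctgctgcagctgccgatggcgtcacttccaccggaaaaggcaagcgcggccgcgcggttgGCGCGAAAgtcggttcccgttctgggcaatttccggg
FANCC (chr9:95317680-95317789, minus strand): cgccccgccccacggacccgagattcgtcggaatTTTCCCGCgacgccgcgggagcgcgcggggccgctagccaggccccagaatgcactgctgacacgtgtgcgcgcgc
BRIP1, the gene with the largest fall in WT, had no E2F match but held 3 CCAAT boxes, of which 2 lie in the stretch shown.
BRIP1 (chr17:61863499-61863608, minus strand): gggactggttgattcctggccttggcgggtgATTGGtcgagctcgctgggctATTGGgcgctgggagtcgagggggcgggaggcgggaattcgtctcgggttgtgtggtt
RAD50, XRCC4 and LIG4, the genes above 0 with tazemetostat in WT at an adjusted limma p under 0.05, had no E2F match.
RAD50 (chr5:132556897-132557006, plus strand): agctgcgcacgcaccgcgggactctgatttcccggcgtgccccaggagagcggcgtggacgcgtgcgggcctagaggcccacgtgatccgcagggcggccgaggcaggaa
XRCC4 (chr5:83077467-83077576, plus strand): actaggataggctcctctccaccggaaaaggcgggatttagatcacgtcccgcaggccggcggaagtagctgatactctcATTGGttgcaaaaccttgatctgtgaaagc
LIG4 (chr13:108218320-108218429, minus strand): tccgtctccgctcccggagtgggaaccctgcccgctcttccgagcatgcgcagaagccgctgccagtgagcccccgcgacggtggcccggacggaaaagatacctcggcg
An E2F match was present in 8 of the 36 promoters (22.2%), those of XRCC2, EXO1, FANCA, FANCC, FANCD2, TOPBP1, XRCC6 and MSH6. The share was 5.2% of 10140 promoters of tested genes and 3.3% of 27305 promoters in the table. CCAAT was found in 47.2% of the 36 promoters, 36.3% of those of tested genes and 35.7% of all. The elements TTTGAA and TTCGAA, known from cell cycle genes and also read on both strands, were found in 11.1%, 10.9% and 16.6%. They lay in 4 members, BRIP1, FANCC, ATM and POLQ, in BRIP1 240 bases before the start and outside its stretch. No motif overlapped another in the stretches shown. Of the 8 genes with an E2F match, 5 fell in WT and the median log2 change was -1.14. Of the 28 without one, 9 fell and the median was -0.78. Among promoters of tested genes, 10.0% of the genes with a match and 5.3% of those without one fell. A match describes letters and not binding, and over all tested genes the medians with and without a match were -0.15 and 0.06.

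The first question was how each line responded to EZH2 inhibition. In WT, 17 of the 42 genes fell and none rose (limma, Benjamini-Hochberg adjusted p under 0.05 together with a change of 1 or more in size on the log2 scale), where 6.77% of all tested genes fell. BRIP1, FANCD2 and RAD51AP1 fell furthest. Without the fold change limit, 36 of the 42 were lower, against 29.4% of tested genes, and RAD50, LIG4 and XRCC4 were higher. The median log2 change of the 42 genes was -0.85, beside 0.03 over all tested genes. In the clones the median was -0.08 in E1 and -0.09 in F2, and the medians over tested genes were both 0.02. In E1 none of the 42 passed the threshold in limma, where 3.78% of tested genes fell. For that comparison edgeR and DESeq2 also called 0 of the 42, and 17 had an unadjusted limma p under 0.05, as did 52.5% of tested genes. In F2 none fell, where 3.71% of tested genes did, and 1 rose, XRCC4, where 13.3% of tested genes did. Without the fold change limit, 10 were lower in E1 (19.7% of tested genes) and 14 in F2 (23.2%).

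**Figure D1:**
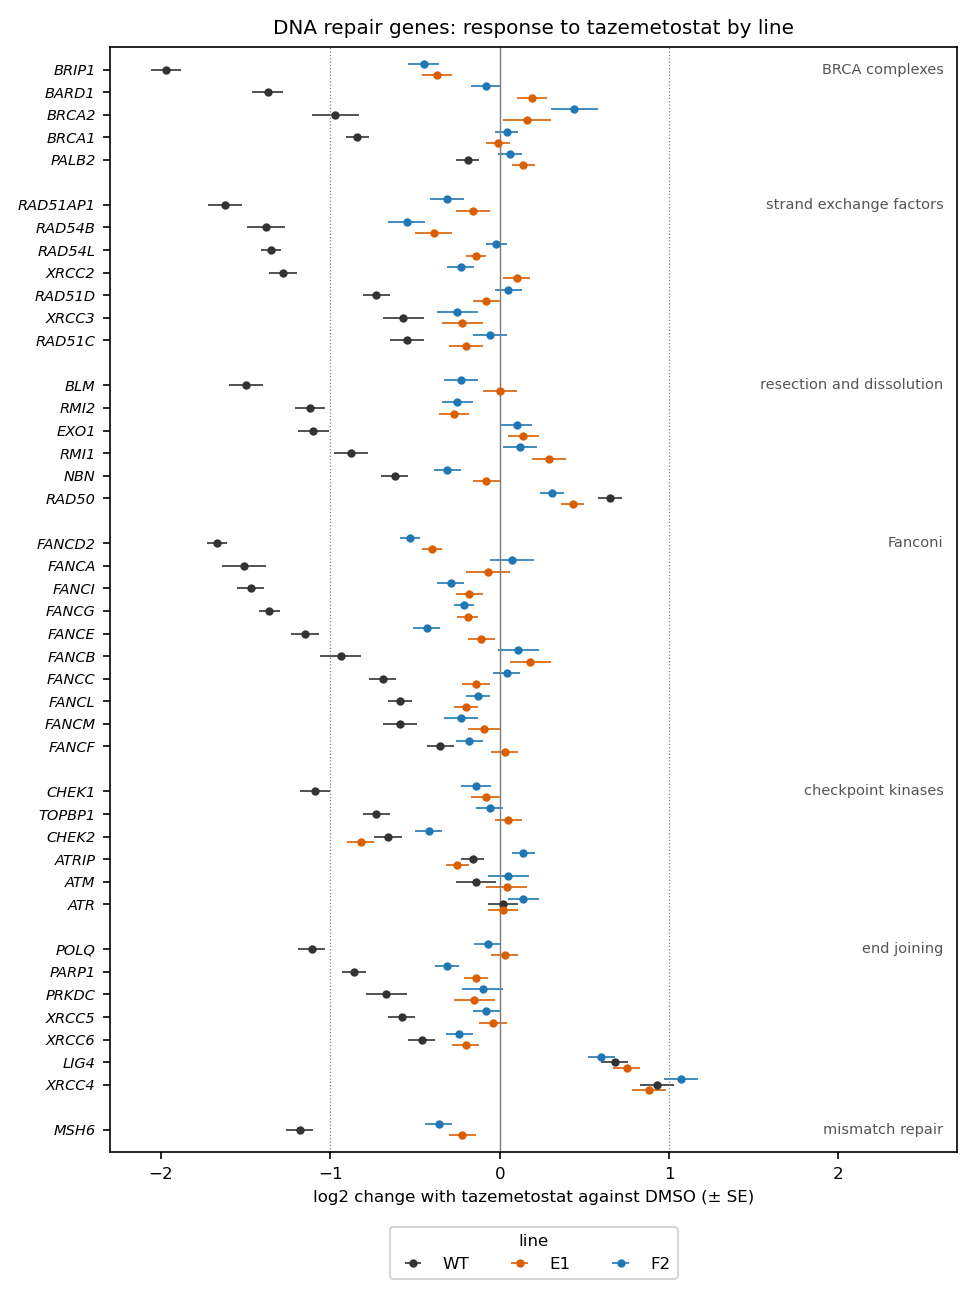
Log2 change with tazemetostat against DMSO (x axis, limma estimate with its SE as a bar) for each of the 42 genes (y axis, grouped by role) in WT, E1 and F2, with dotted lines at -1 and 1. Most WT points lie left of both clones' points, BRIP1 furthest at -1.97, while XRCC4, LIG4 and RAD50 lie right of 0 in all 3 lines.

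BRCA1 and BARD1 form the ubiquitin ligase that directs a break into recombination, PALB2 links it to BRCA2, BRCA2 promotes strand invasion, and BRIP1 is a helicase bound to BRCA1. In WT, 2 of these 5 genes fell and the median log2 change was -0.97. BRIP1 had 1081, 1170 and 1106 normalized counts with DMSO in WT and 295, 292 and 266 with tazemetostat. The treated libraries lay far below the untreated ones, at 25.4% of their mean, which is -1.97 ± 0.09 (SE) on the log2 scale with a limma adjusted p of 7.3e-13. In E1 the counts of BRIP1 were 1089, 913 and 1227 with DMSO and 825, 842 and 822 with tazemetostat. In F2 they were 1335, 1300 and 1457, and 920, 1034 and 1039. The groups did not overlap in either clone, but the log2 changes were smaller, -0.37 in E1 and -0.45 in F2. BARD1 had 934, 982 and 911 counts in WT with DMSO and 391, 355 and 345 with tazemetostat, a log2 change of -1.37. Its counts overlapped between treatments in both clones: 740, 694 and 887 against 825, 861 and 957 in E1, and 1148, 1055 and 999 against 987, 1051 and 986 in F2. BRCA2 went from 1076, 1187 and 1281 to 584, 542 and 688 in WT, which is 51.2% of the DMSO mean and a log2 change of -0.97, just short of the limit. In F2, BRCA2 had 1056, 949 and 1334 counts with DMSO and 1222, 1633 and 1682 with tazemetostat, overlapping groups with a log2 change of 0.44. In E1 its groups also overlapped, at 1133, 855 and 1153 against 1188, 1076 and 1225. BRCA1 had a log2 change of -0.84 in WT and of -0.01 and 0.04 in the clones E1 and F2. PALB2 changed least of the 5 in WT, from 1316, 1317 and 1293 to 1187, 1183 and 1073 counts, 87.7% of the DMSO mean.

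RAD51C, RAD51D, XRCC2 and XRCC3 assist the recombination filament, RAD51AP1 stimulates strand exchange, and RAD54L and RAD54B are motors that remodel DNA during it. Here 4 of 7 fell in WT, with a median log2 change of -1.28. RAD51AP1 had 1399, 1381 and 1261 normalized counts with DMSO in WT and 520, 422 and 381 with tazemetostat. These groups were far apart, with -1.62 ± 0.10 (SE) on the log2 scale and a limma adjusted p of 7.6e-11. In E1 its groups overlapped, at 1047, 1284 and 1212 against 970, 1129 and 1067. In F2 they did not, at 1677, 1510 and 1530 against 1287, 1314 and 1200, a log2 change of -0.31. RAD54B, RAD54L and XRCC2 fell in WT by 1.38, 1.35 and 1.28 on the log2 scale. In E1 their log2 changes were -0.39, -0.14 and 0.10, and in F2 -0.55, -0.02 and -0.23. RAD51D (-0.73), XRCC3 (-0.57) and RAD51C (-0.55) stayed short of the limit in WT. RAD51C, the least changed, went from 935, 921 and 761 counts to 617, 624 and 542, groups that did not overlap. In E1 it had 1091, 1203 and 1310 against 937, 1184 and 1019, and in F2 894, 845 and 766 against 794, 786 and 816, both with overlap.

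RAD50 and NBN belong to the MRN complex, which binds the broken end, EXO1 is a nuclease that cuts it back, and BLM with RMI1 and RMI2 untangles the joined molecules at the end of repair. BLM, RMI2 and EXO1 fell in WT by 1.5, 1.12 and 1.10 on the log2 scale, while RMI1 (-0.88) and NBN (-0.62) did not reach the limit. BLM had 1402, 1414 and 1349 normalized counts with DMSO in WT and 457, 530 and 490 with tazemetostat, 35.5% of the DMSO mean. In E1 it had 967, 800 and 1061 against 812, 1001 and 1000, which overlap, and its mean was 99.5% of that with DMSO. In F2 it had 1533, 1361 and 1361 against 1124, 1254 and 1255, a log2 change of -0.23 with no overlap. RAD50 moved the other way, from 4145, 4222 and 4070 counts to 6499, 6642 and 6388 in WT. Its groups were apart by 0.65 ± 0.07 on the log2 scale (SE; limma adjusted p 3.2e-07), under the limit of 1. In E1 RAD50 had 4338, 3512 and 4517 counts with DMSO and 5161, 5768 and 5712 with tazemetostat. In F2 it had 4059, 3956 and 3956 against 4832, 5109 and 4916. Treated libraries were thus the higher ones in all 3 lines, with log2 changes of 0.43 in E1 and 0.31 in F2. EXO1 had log2 changes of 0.14 in E1 and 0.10 in F2, RMI1 of 0.29 and 0.12, RMI2 of -0.27 and -0.25, and NBN of -0.08 and -0.31.

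**Figure D2:**
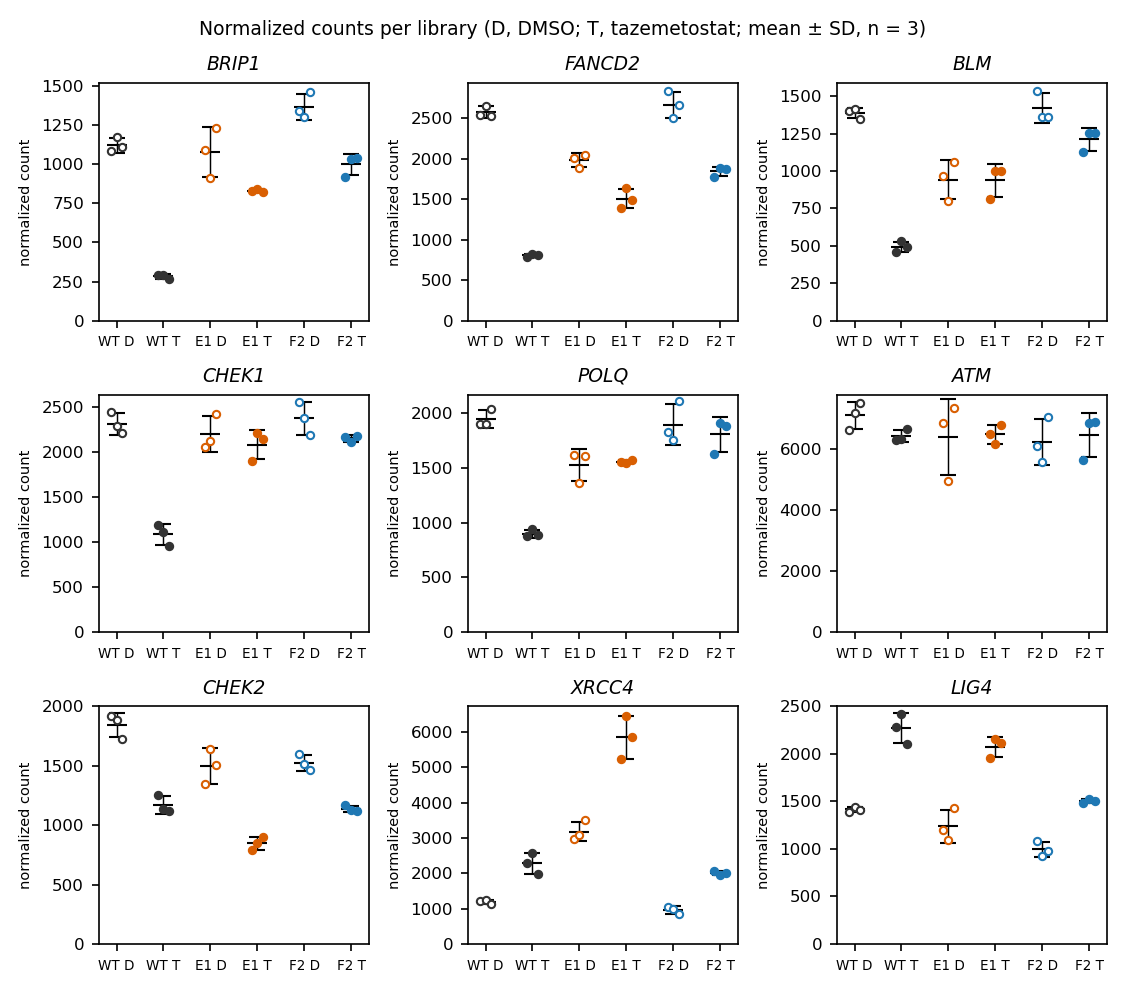
Normalized counts (y axis, from 0) of 9 genes in each library, by line and treatment on the x axis (D, DMSO, open points; T, tazemetostat, filled points; black bars, mean ± SD of n = 3). BRIP1, FANCD2, BLM, CHEK1 and POLQ are lowest in treated WT, with BRIP1 at 266 to 295, whereas XRCC4 and LIG4 are higher with tazemetostat in each line.

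FANCA, FANCB, FANCC, FANCE, FANCF, FANCG, FANCL and FANCM belong to the core complex, in which FANCL is the ubiquitin ligase and FANCM the DNA translocase. Their substrates are FANCD2 and FANCI, which clamp onto the crosslinked DNA. Of these 10 genes 5 fell in WT, and the median log2 change was -1.04. The 2 substrates were among them: FANCD2 fell by 1.67 and FANCI by 1.47 on the log2 scale. FANCD2 had 2537, 2656 and 2522 normalized counts with DMSO in WT and 786, 826 and 808 with tazemetostat, 31.4% of the DMSO mean (log2 change -1.67 ± 0.06 SE, limma adjusted p 6.5e-14). In E1 the counts were 2006, 1888 and 2052 against 1395, 1638 and 1494, and in F2 2832, 2505 and 2661 against 1780, 1881 and 1874. Both clones thus showed lower FANCD2 with tazemetostat without overlap, at 76.1% and 69.2% of the DMSO mean. Within the core complex FANCA (-1.51), FANCG (-1.36) and FANCE (-1.15) fell. FANCA had 1508, 1641 and 1983 counts in WT with DMSO and 514, 596 and 683 with tazemetostat. In E1 it had 2176, 1988 and 1909 against 2302, 1692 and 1849, and in F2 1878, 1850 and 2343 against 1951, 2224 and 2185. In both clones these groups overlapped. FANCB (-0.94), FANCC (-0.69), FANCL (-0.59) and FANCM (-0.59) did not reach the limit in WT. FANCF changed least, from 887, 861 and 788 to 712, 677 and 603 counts, a log2 change of -0.35. In E1 FANCF had 747, 794 and 711 counts against 748, 733 and 813, and in F2 781, 777 and 690 against 683, 654 and 647. The FANCF groups overlapped in E1 and did not in F2, where the log2 change was -0.18 (limma adjusted p 0.07). FANCI had log2 changes of -0.18 in E1 and -0.29 in F2, FANCG of -0.19 and -0.21, and FANCE of -0.11 and -0.43. The other core genes lay between -0.20 (FANCL) and 0.18 (FANCB) in E1 and between -0.23 (FANCM) and 0.11 (FANCB) in F2, FANCC at -0.14 and 0.04 among them.

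Of the checkpoint genes, the kinases ATM and ATR sense damage, ATRIP and TOPBP1 bind and activate ATR, and CHEK1 and CHEK2 carry the signal on. Only CHEK1 of these 6 fell in WT, and the median log2 change of the 6 was -0.41. CHEK1 had 2444, 2288 and 2212 normalized counts with DMSO in WT and 1189, 1119 and 958 with tazemetostat, or -1.09 ± 0.09 (SE) on the log2 scale, with a limma adjusted p of 2.2e-09. The counts overlapped in E1, at 2056, 2125 and 2428 against 1900, 2211 and 2148. In F2 they were 2559, 2382 and 2194 against 2171, 2111 and 2182, without overlap and with a log2 change of -0.14. The sensor kinases had changes near 0. ATR had 2397, 2535 and 2448 counts in WT with DMSO and 2563, 2522 and 2394 with tazemetostat, which overlap. In E1 ATR had 2357, 1881 and 2597 against 2159, 2325 and 2398, and in F2 2146, 1935 and 2127 against 2087, 2432 and 2336. ATM, ATR and PALB2 had log2 changes within 0.2 of 0 in all 3 lines, for ATM -0.14, 0.04 and 0.05. ATRIP had -0.16, -0.25 and 0.14, and TOPBP1 -0.73, 0.05 and -0.06. The counts of CHEK2, chosen for display after its values were seen, were 1916, 1889 and 1727 against 1256, 1139 and 1117 in WT, 1346, 1643 and 1505 against 792, 853 and 897 in E1, and 1597, 1517 and 1461 against 1167, 1128 and 1123 in F2. The treated libraries were the lower ones in each line, with log2 changes of -0.66, -0.82 and -0.42, all under the limit in size.

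In end joining, XRCC6 and XRCC5 form the Ku ring on the broken end, PRKDC is the kinase it recruits, and XRCC4 with LIG4 seals the break. POLQ and PARP1 act in a second, microhomology-mediated route. POLQ was the 1 gene of these 7 to fall in WT, and the median was -0.58. It had 1895, 1901 and 2038 normalized counts with DMSO in WT and 874, 937 and 884 with tazemetostat, or -1.11 ± 0.08 (SE) on the log2 scale, with a limma adjusted p of 8.2e-10. Both clones had overlapping counts of POLQ, 1617, 1358 and 1603 against 1552, 1542 and 1569 in E1 and 1825, 1748 and 2104 against 1622, 1905 and 1880 in F2. The ligase pair went the opposite way. XRCC4 had 1223, 1233 and 1127 counts with DMSO in WT and 2290, 2584 and 1989 with tazemetostat. In E1 it had 2967, 3078 and 3494 against 5238, 6446 and 5857, and in F2 1052, 977 and 846 against 2068, 1940 and 2019. Treated libraries lay above untreated ones in each line, with log2 changes of 0.93 ± 0.10 (SE) in WT, and of 0.88 ± 0.10 and 1.07 ± 0.10 in the clones E1 and F2. Only the change in F2 passed the limit, with a limma adjusted p of 2.6e-08, and without F2 DMSO replicate 3 it was 0.99. The change in WT was 1.03, past the limit, without WT tazemetostat replicate 3. LIG4, shown after its values were seen, had 1392, 1444 and 1412 counts against 2286, 2420 and 2106 in WT. In E1 it had 1200, 1091 and 1427 against 1952, 2156 and 2111, and in F2 1082, 922 and 983 against 1485, 1522 and 1499. Its log2 changes of 0.68, 0.75 and 0.60 were alike in direction and under the limit. PARP1 (-0.86), PRKDC (-0.67), XRCC5 (-0.58) and XRCC6 (-0.46) did not reach the limit in WT. In E1 these 4 had log2 changes of -0.14, -0.15, -0.04 and -0.20, and in F2 of -0.31, -0.10, -0.08 and -0.24.

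MSH6 takes part in recognising mismatched bases. It had 7553, 7098 and 6689 normalized counts with DMSO in WT and 3215, 3229 and 2983 with tazemetostat, or -1.18 ± 0.08 (SE) on the log2 scale, with a limma adjusted p of 2.5e-10. In E1 it had 8652, 7813 and 9312 against 6584, 8128 and 7388, and in F2 8472, 7639 and 7397 against 6067, 5956 and 6255. The treated libraries were lower without overlap in F2 and overlapped in E1, with log2 changes of -0.36 and -0.22.

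The 42 responses were compared between lines. Across the 42 genes, Pearson's r between the responses of E1 and F2 was 0.83, between WT and E1 0.57, and between WT and F2 0.70, as a description, since genes share libraries and depth. Spearman's rank correlation was lower for each pair, at 0.72, 0.3 and 0.51 in the same order. Over all tested genes Pearson's r was 0.93, 0.91 and 0.93. These comparisons share no libraries. The same direction in every line, with an adjusted limma p under 0.05 in each line and no fold change limit, was seen for 8 genes below 0 (BRIP1, RAD54B, RMI2, FANCG, FANCD2, CHEK2, XRCC6 and MSH6), where 11.1% of tested genes met the same rule, and for 3 above 0 (RAD50, XRCC4 and LIG4), where 19.1% did. Levels per kilobase of merged exon in WT with DMSO spanned a wide range. XRCC6 was highest at 6171 ± 414 normalized counts per kb (SD, n = 3), followed by XRCC5 at 3582, PARP1 at 2015 and PRKDC at 1905. RAD51D was lowest at 31.8, below RAD54B at 49.8, FANCC at 61.8 and FANCB at 72.6. The merged exons are those of every annotated transcript, 11304 bases for RAD51D and 5313 for RAD54B. The order therefore also depends on how much exon is annotated. XRCC6, XRCC5, PARP1 and PRKDC at the top were not among the genes that fell in WT. Those that fell ranged from FANCI, at 728 and rank 5, to RAD54B at rank 41. Among members nearest the limit in WT, CHEK1 (-1.09), EXO1 (-1.10) and POLQ (-1.11) lay just inside and BRCA2 (-0.97), FANCB (-0.94) and RMI1 (-0.88) just outside.

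The second comparison asked whether the repair genes differed between the RB1-deleted clones and WT without the inhibitor. They largely did not pass the threshold. In E1, XRCC4 was the 1 gene of 42 that was higher and none was lower, where 2.35% of tested genes were higher. XRCC4 stood at 2967 to 3494 counts in the E1 DMSO libraries and 1127 to 1233 in WT, with no overlap and a log2 difference of 1.41 ± 0.10 (SE; limma adjusted p 4.5e-09). In F2 limma called 0 of the 42, where 2.98% of tested genes were called in either direction, and edgeR and DESeq2 also called 0. At an unadjusted limma p under 0.05 there were 15, beside 32.7% of tested genes. Between the clones, XRCC4 was higher in E1 than in F2 by 1.73 on the log2 scale and no other of the 42 passed, where 4.05% of tested genes were higher. The median of the 42 log2 differences from WT was -0.07 in E1 and 0.03 in F2. Without the fold change limit, 16 of the 42 passed in E1 (23.2% of tested genes), 8 in F2 (20.2%) and 17 between the clones (37.1%). The lowest values in E1 against WT were XRCC2 (-0.60) and BLM (-0.57), and the lowest in F2 was LIG4 (-0.51).

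The third comparison asked whether the response itself differed, as the change in a clone minus the change in WT, tested as an interaction. Higher here means a log2 change above that of WT, such as a smaller fall, and not a larger response. The response was higher than in WT for 17 of the 42 genes in E1, where 4.79% of tested genes were, and for 14 in F2, where 4.82% were. None was lower in either. Both differences use the same WT libraries, so the clones' values are given side by side and are not independent. BRIP1 had the largest difference in E1, 1.61 ± 0.13 (SE; limma adjusted p 3e-08), beside 1.52 in F2. FANCA had the largest in F2, 1.59 ± 0.18 (limma adjusted p 3.3e-06), beside 1.45 in E1. BARD1 had 1.56 in E1 and 1.29 in F2, BLM 1.49 and 1.27, and BRCA2 1.13 and 1.41. Part of such a difference in E1 can lie in the DMSO level. BLM and XRCC2 (difference 1.38) lay below WT in E1 with DMSO, at -0.57 and -0.60. With tazemetostat they lay above it, at 0.92 and 0.79. Not every gene did so: FANCA had 0.25 with DMSO (limma adjusted p 0.18) and 1.70 with tazemetostat. RMI1 was past the limit in E1 at 1.17 and lay just short of it in F2. CHEK1 (1.01) and FANCE (1.03) passed in E1 and had 0.95 and 0.72 in F2. CHEK1 in E1 rested on single libraries: it was 0.93 to 0.99 without WT DMSO replicate 1, WT tazemetostat replicate 3, E1 DMSO replicate 1 or 2, or E1 tazemetostat replicate 2 or 3. FANCE in E1 was 0.99 without WT tazemetostat replicate 3 and under the limit without E1 DMSO replicate 3, and BRCA2 in E1 was 0.99 without E1 DMSO replicate 2. In F2, FANCB (1.05) was 0.98 without F2 DMSO replicate 2 and 0.96 without F2 tazemetostat replicate 2, and POLQ (1.04) was 0.99 without F2 DMSO replicate 2. The median difference was 0.81 in E1 and 0.76 in F2, beside 0.01 over all tested genes in both. Without the fold change limit, 32 genes were higher in E1 (17.2% of tested genes) and 30 in F2 (13.7%). Of the genes that were higher with tazemetostat in each line, XRCC4 had -0.05 ± 0.14 in E1 and 0.14 ± 0.14 in F2, and LIG4 0.07 ± 0.12 and -0.08 ± 0.12 (SE). RAD50, the third of them, had -0.22 ± 0.10 and -0.34 ± 0.10 (SE), with limma adjusted p of 0.12 and 0.021. CHEK2 had -0.16 and 0.24.

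Compared directly under tazemetostat, 11 of the 42 genes were higher in E1 than in WT, where 5.4% of tested genes were, and 16 were higher in F2, where 7.31% were. None was lower in either clone. Both comparisons share the treated WT libraries. FANCA and BRIP1 led in both, at 1.70 and 1.54 in E1, and at 1.83 and 1.81 in F2, on the log2 scale. The median was 0.79 in E1 and 0.87 in F2. Without the fold change limit, 34 were higher in E1 (25.0% of tested genes) and 32 in F2 (25.1%). POLQ in F2, at 1.00, was 0.96 to 0.99 without WT tazemetostat replicate 1 or 3 or F2 tazemetostat replicate 2 or 3, and FANCB in F2, at 1.03, was 0.94 without F2 tazemetostat replicate 2. Between the treated clones XRCC4 was again the 1 gene of 42 past the threshold, higher in E1 (2.39% of tested genes). Without the fold change limit 17 passed (34.5%).

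**Figure D3:**
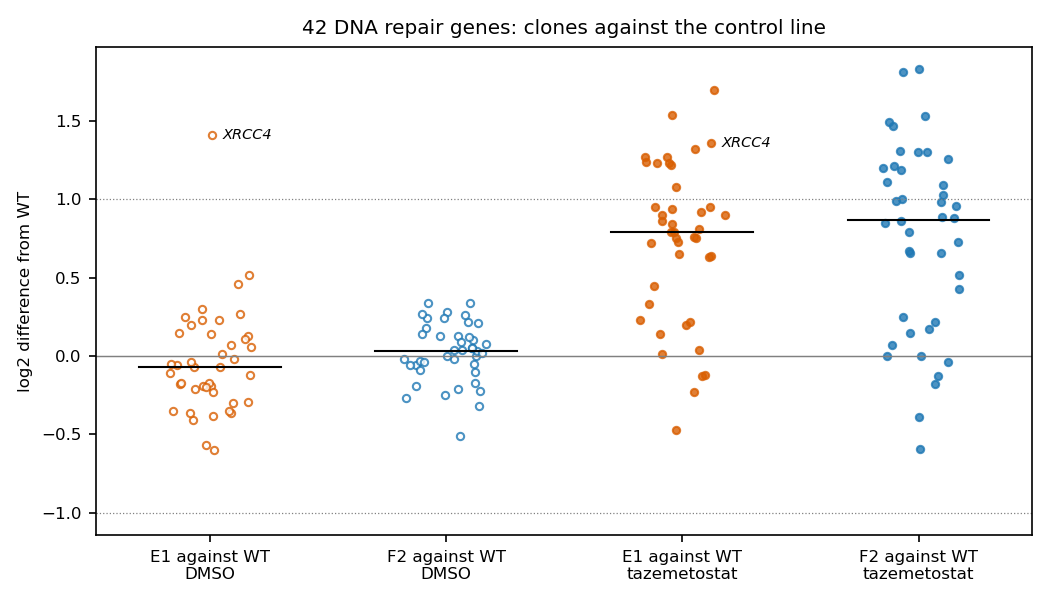
Log2 difference from WT (y axis) of the 42 genes, 1 point each, in E1 and F2 with DMSO (open points) and with tazemetostat (filled points). Black lines are medians, dotted lines mark -1 and 1, and the spread along x within a group carries no value. In DMSO the medians are -0.07 and 0.03 with XRCC4 in E1 at 1.41, and with tazemetostat they are 0.79 and 0.87.

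Other repair genes were taken as whole lists. In WT, 20 of the 116 tested genes on 7 further lists fell and none rose, with a median log2 change of -0.28. Of all tested genes 6.77% fell and 14.5% rose, the shares beside which each list's count stands. The second set of break and crosslink repair genes had 8 of 37 that fell (median -0.49), led by the nuclease genes EME1 (-1.66) and DNA2 (-1.47), while SLX4, a nuclease scaffold, had 0.38. Nucleotide supply had 4 of 6 that fell (median -1.23), led by TYMS (-1.64), the thymidylate synthase, and RRM1 (-1.60), a ribonucleotide reductase subunit, with SAMHD1, a dNTP hydrolase, at 0.35. Of 14 other checkpoint genes 5 fell (median -0.33), led by CLSPN (-1.28) and TIMELESS (-1.25), which steady the replication fork. Of 15 damage tolerance genes KIAA0101 (-1.99), a PCNA-binding factor, and USP1 (-1.60), which removes ubiquitin from FANCD2, fell, and the polymerase gene POLH had 0.63. The excision repair lists had medians nearer 0. Base excision repair had 1 of 19, the glycosylase gene NEIL3 (-1.58), with UNG at -0.90 and MPG at 0.68 and a median of -0.21. Nucleotide excision repair had 0 of 19 called by limma (median -0.05), 9 of them at an unadjusted p under 0.05 (67.2% of tested genes), with ERCC8 at -0.65, XPA at -0.31 and ERCC6 at 0.85. Of 6 other mismatch repair genes limma called 0 (median -0.56) although all 6 had an unadjusted p under 0.05, with PMS2 at 0.72. In E1, 0 of the 116 genes passed in limma, where 15.1% of tested genes did, and 46 had an unadjusted p under 0.05 (52.5% of tested genes). In F2 RAD51B, a recombination gene (-1.36), and HLTF, a fork remodeller gene (-1.06), fell, where 3.71% of tested genes did. These falls were not particular to F2. Their F2 changes minus those of WT were 0.03 and -0.08, and in E1 their log2 changes were -0.71 and -0.79.

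Genes of the cell cycle moved with the repair genes. Of 12 such genes 10 fell in WT, with a median log2 change of -1.37, and limma called 0 in E1 (median -0.19, 6 at an unadjusted p under 0.05, where 52.5% of tested genes were) and 0 in F2 (median -0.33, 10 at an unadjusted p under 0.05, where 57.1% of tested genes were). Their summed level was 101691 to 110681 normalized counts in WT with DMSO and 38623 to 43478 with tazemetostat. In E1 it was 115210 to 115764 and 97921 to 109720, and in F2 123524 to 131712 and 106803 to 110149. The proliferation marker MKI67 had 13650, 16489 and 16217 counts in WT with DMSO and 5768, 6023 and 5598 with tazemetostat, whereas the E1 libraries overlapped at 16039, 11689 and 14425 against 15389, 15251 and 16948, as did those of F2 at 17212, 17296 and 21806 against 18484, 23226 and 23440. CCNA2, the S and G2 phase cyclin gene, went from 4615, 4314 and 4117 to 1169, 1244 and 972 in WT, and had log2 changes of -0.25 in E1 and -0.38 in F2. PCNA, the replication clamp gene, went from 7660, 7022 and 6239 to 2524, 2878 and 2203 in WT, with -0.11 in E1 and -0.37 in F2. The part of the cell cycle genes' change in that of the repair genes was not tested.

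**Figure D4:**
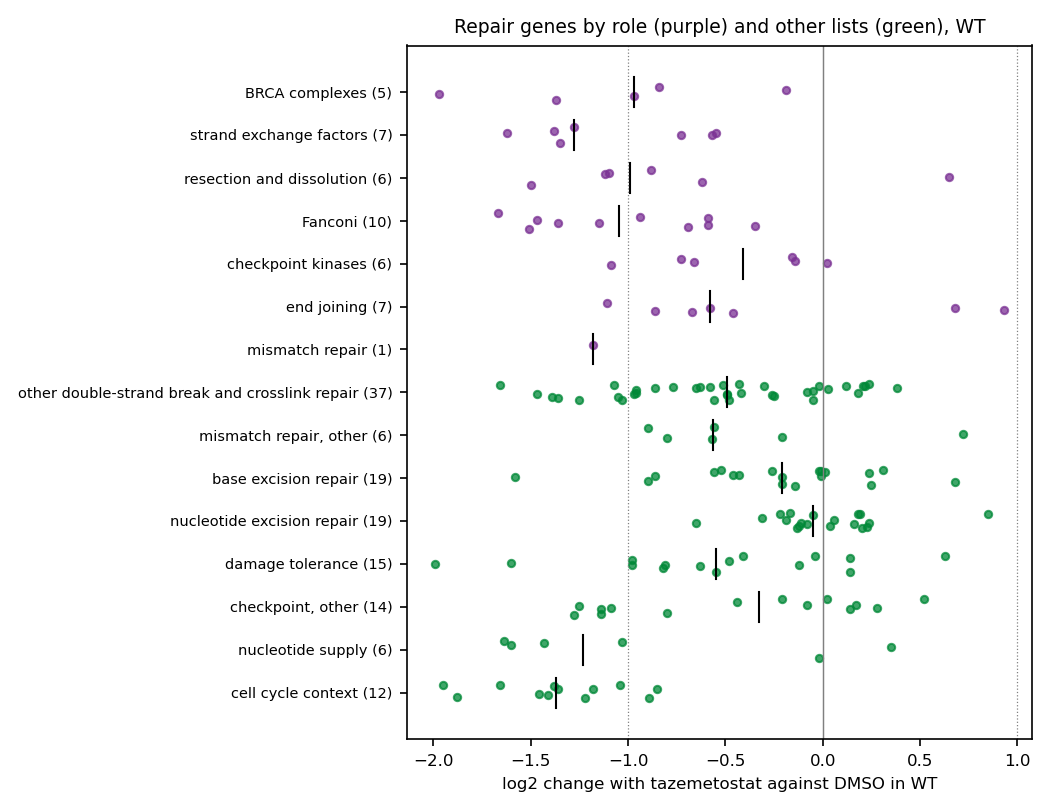
Log2 change with tazemetostat against DMSO in WT (x axis), 1 point per gene, for the 42 repair genes by role (purple) and 8 further lists (green), with the number of tested genes in brackets. Black bars are medians and dotted lines mark -1 and 1. Medians of the roles run from -1.28 for the strand exchange factors to -0.41 for the checkpoint kinases (MSH6, alone, at -1.18), and the cell cycle list lies at -1.37.

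Exons of 6 of the 42 genes overlap a gene on the same strand and those of 18 a gene on the opposite strand in GENCODE v29, and 21 have neither. BRCA1, RAD51D, RAD54B, RAD50, ATRIP and CHEK1 are the 6, so that their counts are uncertain where reads could belong to the other gene. Whether the authors' counting used the strand is not given in the sources used here. If it did not, the counts of the 18 are uncertain in the same way, FANCA, FANCI and MSH6 among them.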

How the data were processed

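Poly(A) RNA of 18 cultures was sequenced in paired-end mode with a stranded kit, per the labels' protocols. The submitters' processing notes name Trim Galore 0.4.4, STAR 2.6.0a, HTSeq, DESeq2 and the build hg19, with no role or order. The annotation and the strand setting are not given in the sources used here. The authors deposited 1 table of normalized counts, a signal equal to each gene's reads over the library's size factor. Multiplying by that factor gave whole reads for 100% of values in every library (tolerance 0.001), and depth was taken from these reads.

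Values were tested as log2(value + 1) with limma 3.58.1 (lmFit, eBayes with trend) in R 4.3.3, in 1 fit of 6 group means over 16154 genes with a mean of at least 10, with Benjamini-Hochberg adjustment over all of them. Fold changes on this scale understate changes of low genes. The 42 genes and all lists were chosen with earlier results of these data known. Every gene is named with a value. Counts per library are given for the largest fall and the largest rise (or smallest fall) in WT per role, for genes past the threshold between lines in DMSO, and for the 3 largest response differences per clone. Of other lists the 2 largest falls and the largest rise in WT are named, and MKI67, CCNA2 and PCNA of the cell cycle list. Some genes that this rule names are not reported here.

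Same-numbered libraries' deviations from their group means correlated at 0.182, 0.108 and 0.375 for F2 against WT in DMSO, all over 0.1. The 3 values are not independent, since deviations within a group cancel out. Differently numbered libraries were not compared, a single replicate elsewhere reached 0.315, and no label states a shared batch. Pairing of those libraries is therefore not shown. In no other comparison were all 3 over 0.1. Alternatives were other pseudocounts, filters and scalings, a replicate block, fewer groups in the fit, each library left out, and edgeR 4.0.16 and DESeq2 1.42.0 on the recovered reads. On data simulated from these libraries (16154 genes, 200 changed) the fit recovered 100% of genes changed by 1.5 or 2 (log2) for tazemetostat in WT with 0 false calls. For the response difference of E1 it recovered 97% and 100%, with 1 false call among 198. Only genes of higher mean were changed, and every other gene had no change at all. In the data 21.3% of tested genes were called with tazemetostat in WT. The simulation therefore does not cover low genes or changes near the limit of 1, where many of the calls lie. Promoters are RefSeq's on GRCh38.p14 and exon lengths and overlaps GENCODE v29's, matched by symbol. No coordinates of the deposited build were used. NHEJ1 and GTF2H4, on the wider lists, were below the filter.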

Additional observations from a re-analysis of the deposited data

Results flagged for a closer look

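The difference between a clone's response to tazemetostat and that of WT was tested directly, as an interaction in the limma fit, and genes past the threshold are listed with the log2 difference, positive where the clone's change lay above that of WT. In E1 there were 17 of the 42: BARD1 (1.56), BRCA2 (1.13), BRIP1 (1.61), RAD51AP1 (1.46), XRCC2 (1.38), RAD54L (1.21), EXO1 (1.25), BLM (1.49), RMI1 (1.17), FANCA (1.45), FANCB (1.11), FANCE (1.03), FANCG (1.17), FANCD2 (1.28), FANCI (1.28), CHEK1 (1.01) and POLQ (1.14). In F2 there were 14: BARD1 (1.29), BRCA2 (1.41), BRIP1 (1.52), RAD51AP1 (1.31), XRCC2 (1.05), RAD54L (1.33), EXO1 (1.2), BLM (1.27), FANCA (1.59), FANCB (1.05), FANCG (1.15), FANCD2 (1.14), FANCI (1.17) and POLQ (1.04). Both lists use the same WT libraries.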

How the results depend on the processing

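None of the 79 results past the threshold changed direction under any alternative, while values not past it could change sign. With every library scaled to the same total, 5 of the 42 log2 changes with tazemetostat did so in E1 and 1 in WT, as did 3 in F2 against WT with tazemetostat and 1 in each response difference. With TMM scaling 1 did so in F2 against WT with tazemetostat and 1 in the response difference of E1. Dropping the fold change limit moved every count: the genes past the threshold with tazemetostat became 39 in WT (36 lower, 3 higher), 14 in E1 (10 lower, 4 higher) and 18 in F2 (14 lower, 4 higher). With DMSO they became 16 for E1 against WT (11 lower, 5 higher), 8 for F2 against WT (4 lower, 4 higher) and 17 for E1 against F2 (12 lower, 5 higher). With tazemetostat they became 36 (2 lower, 34 higher), 34 (2 lower, 32 higher) and 17 (11 lower, 6 higher), and for the response differences 32 in E1 (0 lower) and 31 in F2 (1 lower). With 1 library left out at a time, the counts were 17 to 19 in WT with tazemetostat, 0 in E1 and 0 to 1 in F2, where the 0 came without F2 DMSO replicate 3. In DMSO they were 1 where E1 was set against WT and 0 where F2 was, 11 to 13 and 15 to 17 with tazemetostat, 15 to 18 and 12 to 16 for the response differences of E1 and F2, and 1 between the clones in either treatment. Of the 79 results, 8 were short of the threshold in at least 1 setting, each near a log2 value of 1: with TMM scaling CHEK1 in the response difference of E1 (0.99) and POLQ in F2 against WT with tazemetostat, the latter also with a pseudocount of 5.

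With every library scaled to the same total, the median of all tested genes with tazemetostat in WT moved from 0.03 to -0.12, and those of F2 against WT with tazemetostat and of its response difference to 0.14 and 0.13. The median of the 42 genes was then -1.0 in WT and 0.88 in the response difference of F2, and 21 fell in WT, where 9.38% of tested genes did. The edgeR and DESeq2 tests gave the same counts of the 42 genes as limma. With the replicate block, 17 genes fell in WT and no call among the 42 changed, for F2 against WT in DMSO as for the rest. Each group is 3 libraries, and each clone is 1 line.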

Other observations

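Of 116 tested repair genes outside the 42, 3 passed the threshold between E1 and WT in DMSO, where 5.04% of all tested genes did. DDB2, which recognises ultraviolet lesions, and POLH, a translesion polymerase, were higher in E1 by 1.19 ± 0.06 and 1.30 ± 0.06 on the log2 scale (SE; limma adjusted p 1e-10 and 3.2e-11), and NEIL1, a glycosylase, had a log2 difference of -1.01 ± 0.23 (limma adjusted p 0.0038). In F2 the log2 differences from WT were 0.57, 0.07 and -0.04. Against F2 in DMSO, E1 was higher in POLH (1.23) and lower in RAD51B (-1.21), CDC25B (-1.05) and EME1 (-1.0), where 7.56% of tested genes passed in either direction.

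XRCC4 was the 1 repair gene of the 42 past the threshold between lines in DMSO, so its neighbours in RefSeq gene order were read after its values were seen. In E1 against WT with DMSO, TMEM167A on one side had a log2 difference of 0.17 and VCAN on the other 0.31, beside 1.41 for XRCC4. RPS23, ATG10 and SSBP2 beyond TMEM167A had -0.17, 0.14 and 0.03. Beyond VCAN, HAPLN1 had -0.84 ± 0.86 (SE) and COX7C -0.23, while EDIL3 had 0 reads in the DMSO libraries of both lines, so no difference is given for it. None of these neighbours passed the threshold.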
